A study of Mus musculus with 4 samples.

Results

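A set of 9 genes for neutrophil granule proteins and for calprotectin were followed in 4 libraries of polyadenylated RNA from mouse macrophages grown from bone marrow. They are Mpo, Ltf, Lcn2, Camp, Ngp, Mmp8, S100a8, S100a9 and Retnlg, chosen by name as a readout of neutrophils left in such cultures. All 9 were found among the 17194 gene symbols of the count table, and all 9 passed the filter on low counts that left 15651 genes. The primary cells had been treated with RANKL, the cytokine that drives osteoclast formation, and were sampled at day 2. Of the 4 libraries, 2 carry the label siControl and 2 the label siHells, for an siRNA against Hells, a chromatin remodelling ATPase. All groups share the RANKL treatment, and the sources used here give no mouse strain, age or siRNA sequence. The labels do not state whether libraries of 1 group are separate cultures or mice. The p-values therefore speak for the spread of these libraries alone, which may be technical.

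Neutrophils store their antimicrobial proteins in granules that are made in waves as the cell matures. Azurophil granules form first and hold myeloperoxidase and serine proteases. Specific granules follow with lactoferrin, lipocalin 2, cathelicidin and the collagenase Mmp8, and gelatinase granules come last with the gelatinase Mmp9. Calprotectin, the dimer of S100A8 and S100A9, fills the cytosol of neutrophils and is also found in monocytes. Several of these genes are not limited to neutrophils, since macrophages are known to make lipocalin 2 and matrix metalloproteinases when stimulated.

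Total counts ranged from 48873635 to 55642819 per library. Hells itself was 1.99-fold lower in the siHells libraries (log2 fold change -0.99, SE 0.068, adjusted p = 5.96e-09). Adjusted p-values come from the edgeR quasi-likelihood test, corrected by Benjamini-Hochberg over all genes tested. Markers of both macrophages and neutrophils were present. Per kilobase of exon, the macrophage genes Lyz2 and Csf1r stood at 8622 ± 53.2 and 299.6 ± 2.26 CPM in siControl (SD, n = 2), and the neutrophil receptors Cxcr2 and Csf3r stood at 0.701 ± 0.0640 and 14.2 ± 0.180. S100a9, also on the neutrophil list, reached 267.0 ± 8.39, near the level of Csf1r. Of 10 neutrophil markers, 9 were in the table. The remaining one, Ly6g, was not among the symbols analysed here, and the table lists no count below 1.

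The 3 sequences printed here carry the same short motif upstream of genes that moved in opposite directions between the groups. Each is the RefSeq sequence of GRCm38.p6 on the plus strand, 5′ to 3′, ending before the RefSeq and GENCODE transcript starts. Capitals mark a match to TTGCNNAA, a motif of the type bound by C/EBP transcription factors, searched on both strands.
Mmp8 (chr9:7558229-7558428): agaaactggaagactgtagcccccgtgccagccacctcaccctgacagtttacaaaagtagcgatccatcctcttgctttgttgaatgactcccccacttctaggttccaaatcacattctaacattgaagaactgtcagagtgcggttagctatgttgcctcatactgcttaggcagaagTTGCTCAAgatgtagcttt
Ltf (chr9:111019092-111019270): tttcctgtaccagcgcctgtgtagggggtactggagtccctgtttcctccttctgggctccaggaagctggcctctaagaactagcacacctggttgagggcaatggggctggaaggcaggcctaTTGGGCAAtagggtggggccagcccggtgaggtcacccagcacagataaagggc
Ngp (chr9:110419608-110419746): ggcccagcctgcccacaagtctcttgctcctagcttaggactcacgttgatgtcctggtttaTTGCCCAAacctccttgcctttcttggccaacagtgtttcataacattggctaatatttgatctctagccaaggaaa

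The 9 genes did not move as a block. Of the 9, 3 were higher and 5 lower in siHells, where 29.0% of all tested genes were higher and 29.5% lower, 58.5% together. This even split came with TMM scaling, at 4541 higher and 4612 lower genes, and was 4163 and 4979 with upper-quartile scaling and 3773 and 5508 with library totals. The 2 groups did not overlap in 8 of the 9 genes, against 78.5% of all genes tested. The median log2 fold change was -0.12 over the 9 genes and -0.0043 over all tested genes. The median size of the change, taken without its sign, was 0.85 over the 9 genes and 0.34 over all tested genes. Mmp8 rose and Ltf and Camp fell by 2-fold or more, where 6.75% of tested genes rose and 5.52% fell by that much. In these bulk libraries, fewer cells of a type and less RNA per cell cannot be told apart.

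**Figure D1:**
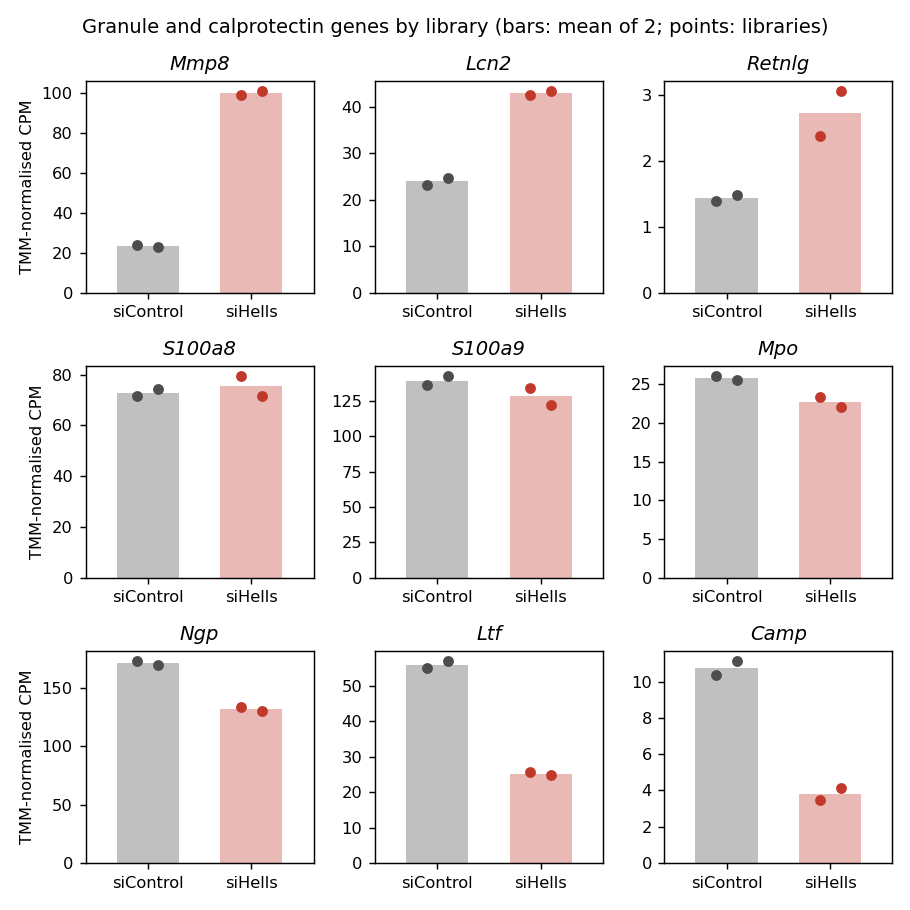
TMM-normalised CPM of each of the 9 genes, in one panel per gene with its own axis from 0. Points are libraries and bars are means of 2 libraries per group. Mmp8 rises from 24.1 and 23.0 to 99.4 and 101.2 CPM, Ltf falls from 55.0 and 56.9 to 25.7 and 24.7 CPM, and the S100a8 points of the 2 groups overlap.

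Among the granule metalloproteinases, Mmp8, the neutrophil collagenase, had 1324 and 1153 reads in siControl against 5389 and 5429 in siHells. Both siHells libraries lay far above both siControl libraries. On the CPM scale Mmp8 rose 4.25-fold, from 23.6 ± 0.740 to 100.3 ± 1.25 (± SD, n = 2 per group; log2 change 2.09, SE 0.050, adjusted p = 1.93e-14). Mmp8 codes for protein and occupies bases 7558456 to 7568485 of chromosome 9 (GRCm38, plus strand). The nearest gene downstream in the table, Mmp27, encodes another metalloproteinase and starts 12.9 kb from the Mmp8 start on the same strand. Mmp27 had 581 and 531 reads in siControl against 2518 and 2481 in siHells, a rise of 4.38-fold (log2 fold change 2.13, SE 0.066, adjusted p = 3.96e-13). The other 2 genes of the table within 200 kb, Cbx3-ps8 and Gm10709, had log2 fold changes of -0.38 and -0.39 and did not pass the test. Other collagenases went the opposite way. Mmp13 fell 3.86-fold and the membrane-bound Mmp14 fell 3.55-fold, and the inhibitors Timp1, Timp2 and Timp3 had log2 fold changes of -0.20, -0.31 and -0.34. The fall of Timp1 did not pass without siControl replicate 1 (adjusted p = 0.0750).

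Lcn2 encodes lipocalin 2, a specific granule protein that binds the siderophores with which bacteria take up iron. It had 1277 and 1236 reads in siControl against 2314 and 2330 in siHells, again with no overlap between the groups. Lcn2 rose 1.80-fold, from 24.0 ± 1.04 to 43.1 ± 0.523 CPM (± SD, n = 2 per group; log2 change 0.85, SE 0.059, adjusted p = 6.80e-09). Lcn2 spans bases 32384633 to 32388252 of chromosome 2 (GRCm38, minus strand). Its neighbours went the other way more often, with 7 lower and 2 higher of 14 tested within 200 kb. Over all tested genes 29.5% were lower and 29.0% higher. The neighbouring gene 1110008P14Rik, which starts 6.3 kb away, fell 2.67-fold, and Ptges2, a prostaglandin E synthase 7.6 kb away, fell 1.71-fold.

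Lactoferrin, the iron-binding protein of specific granules, is encoded by Ltf, which had 3021 and 2848 reads in siControl against 1392 and 1327 in siHells. The siHells libraries held less than either siControl library. Ltf fell 2.22-fold, from 55.9 ± 1.38 to 25.2 ± 0.669 CPM (± SD, n = 2 per group; log2 change -1.15, SE 0.055, adjusted p = 7.64e-11). Camp, the precursor of the cathelicidin antimicrobial peptide, had 570 and 557 reads in siControl against 188 and 222 in siHells. It fell 2.82-fold, from 10.8 ± 0.538 to 3.80 ± 0.473 CPM (± SD, n = 2 per group; log2 change -1.50, SE 0.12, adjusted p = 4.75e-08). Ngp, a granule protein of the cystatin and cathelicidin type, had 9513 and 8519 reads in siControl against 7242 and 7011 in siHells. Its fall was smaller, 1.30-fold, from 171.7 ± 2.00 to 132.1 ± 2.07 CPM (± SD, n = 2 per group; log2 change -0.38, SE 0.035, adjusted p = 2.11e-07). Lcn2 and Ltf, whose proteins share a granule type, therefore moved apart within each library. Lcn2 had 42.3 and 43.4 reads per 100 Ltf reads in siControl, and 166.2 and 175.6 in siHells.

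Camp, Ngp and Ltf sit near each other on chromosome 9 of GRCm38, with Camp at 109847379 to 109849617, Ngp at 110419747 to 110423012 and Ltf at 111019271 to 111042767. Their starts span 1.17 Mb. The genes beside them did not all follow. Within 200 kb of Ltf 4 of 5 tested genes fell, within 200 kb of Camp 1 of 4 fell and 1 rose, and within 200 kb of Ngp 4 of 6 rose and 1 fell. Over all tested genes 29.5% were lower and 29.0% higher. Those beside Ltf that fell were Prss46, Prss50, Als2cl and Lrrfip2, with log2 fold changes of -2.00, -1.66, -0.41 and -0.15.

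Mpo encodes myeloperoxidase, the enzyme of azurophil granules that makes hypochlorous acid. It had 1432 and 1282 reads in siControl against 1267 and 1182 in siHells. The groups did not overlap on the CPM scale, at 26.1 and 25.6 against 23.4 and 22.0, but lay close together. Mpo fell 1.14-fold (log2 fold change -0.19, SE 0.066, adjusted p = 0.0239). The call was lost without siControl replicate 1 (adjusted p = 0.0967), siControl replicate 2 (0.0737) or siHells replicate 2 (0.132), and with the DESeq2 Wald test (0.0795). Mpo, on chromosome 11 at 87793581 to 87804413 of GRCm38, shares its bases with the antisense gene Gm11505. With no stated strand setting, reads of the pair cannot be separated.

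The calprotectin genes had the smallest fitted changes of the 9. S100a8 had 3924 and 3717 reads in siControl against 4301 and 3849 in siHells, or 71.4 and 74.3 against 79.3 and 71.7 CPM. The groups overlapped, and the log2 fold change was 0.05 with a 95% interval of -0.06 to 0.16 (adjusted p = 0.394). Without siHells replicate 2 the log2 fold change was 0.13 and S100a8 passed the test (adjusted p = 0.0250), and without siHells replicate 1 it was -0.02 (adjusted p = 0.775). Scaling by library totals gave -0.02 (adjusted p = 0.755). S100a9 had 7490 and 7129 reads in siControl against 7270 and 6558 in siHells, or 136.3 and 142.5 against 134.1 and 122.2 CPM. Both siHells libraries were lower than both siControl libraries, by a small margin. S100a9 fell 1.09-fold (log2 fold change -0.12, SE 0.045, 95% interval -0.22 to -0.02, adjusted p = 0.0329). That call was lost without siControl replicate 2 (adjusted p = 0.264) or siHells replicate 2 (0.291), with no filter on low counts (0.0559) and with the DESeq2 Wald test (0.0656).

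Because both calprotectin genes were measured in the same libraries, their ratio can be read without scaling. S100a8 had 52.4 and 52.1 reads per 100 S100a9 reads in siControl, against 59.2 and 58.7 in siHells. This ratio differed by less than 1 read within a group and was higher in both siHells libraries. The 2 genes lie 26.7 kb apart, start to start, on chromosome 3 of GRCm38, S100a8 at 90668978 to 90670035 on the plus strand and S100a9 at 90692632 to 90695721 on the minus strand. They belong to a cluster of S100 genes, which encode small calcium-binding proteins. Of 10 S100 genes tested in the genome, 1 rose and 5 fell, with a median log2 fold change of -0.16. Over all tested genes 29.0% were higher and 29.5% lower. S100a4, known from motile cells and 65.2 kb from S100a8, fell 2.36-fold, from 974.7 ± 13.1 to 412.8 ± 1.89 CPM (± SD, n = 2 per group; adjusted p = 8.22e-15). S100a11 and S100a10 had log2 fold changes of -0.35 and -0.20, and S100a16 was the 1 that rose (0.65, adjusted p = 5.67e-04). The count of S100 genes that rose was 2 without siControl replicate 2, with S100a6 added, and 3 without siHells replicate 2, with S100a6 and S100a8 added.

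Retnlg, a resistin-like secreted protein used as a marker of mature neutrophils, was the least abundant of the 9. It had 76 and 74 reads in siControl against 129 and 164 in siHells. Both siHells libraries were higher, and Retnlg rose 1.90-fold, from 1.43 ± 0.0679 to 2.72 ± 0.479 CPM (± SD, n = 2 per group; log2 change 0.93, SE 0.21, adjusted p = 0.00154). Reads may be split between Retnlg and its similar neighbour Retnla, on chromosome 16 as well, and Retn, Retnla and Retnlb were not among the symbols analysed here.

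**Figure D2:**
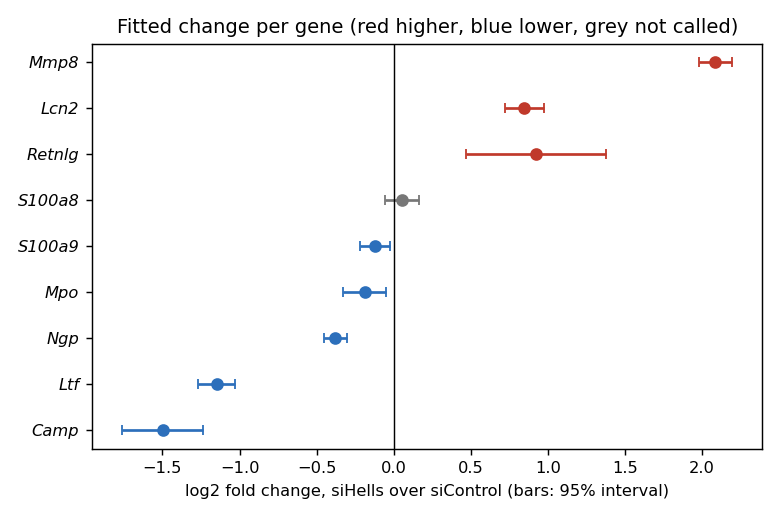
Log2 fold change of siHells over siControl for each of the 9 genes, from the fit across all genes. Points are estimates and bars 95% intervals, from 2 libraries per group. Red points are the 3 genes that were higher, blue points the 5 that were lower, and the grey point is S100a8, whose interval spans 0. The estimates run from -1.50 for Camp to 2.09 for Mmp8.

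Added up, the 9 genes took nearly the same share of every library while their mixture changed. Their share of all counts was 0.0535% and 0.0543% in siControl, against 0.0530% and 0.0510% in siHells. The 95% Wilson intervals, which cover counting error only, were 0.0529% to 0.0541% and 0.0536% to 0.0549% in siControl, and 0.0524% to 0.0536% and 0.0504% to 0.0516% in siHells. Within this sum Mmp8 went from 4.62% and 4.35% of the reads of the 9 genes to 18.3% and 19.3%. Ltf went from 10.6% and 10.7% to 4.72% and 4.73%, and Ngp from 33.2% and 32.1% to 24.6% and 25.0%. S100a8 stayed between 13.7% and 14.6% in all libraries. With TMM scaling the 9 genes summed to 520.8 and 529.9 CPM in siControl and 544.1 and 523.2 CPM in siHells. These groups overlap, while the shares of all counts were lower in both siHells libraries. The summed level thus differed less between the groups than Mmp8, Ltf and Camp, which each differed by more than 2-fold. It holds changes that offset each other. Mmp8 rose from 23.6 to 100.3 CPM and Lcn2 from 24.0 to 43.1, while Ngp fell from 171.7 to 132.1 and Ltf from 55.9 to 25.2. Camp, S100a9 and Mpo were lower too, and Retnlg was higher. The near-equal sum rests largely on the rise of Mmp8. It does not show a steady neutrophil content, which was not tested.

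**Figure D3:**
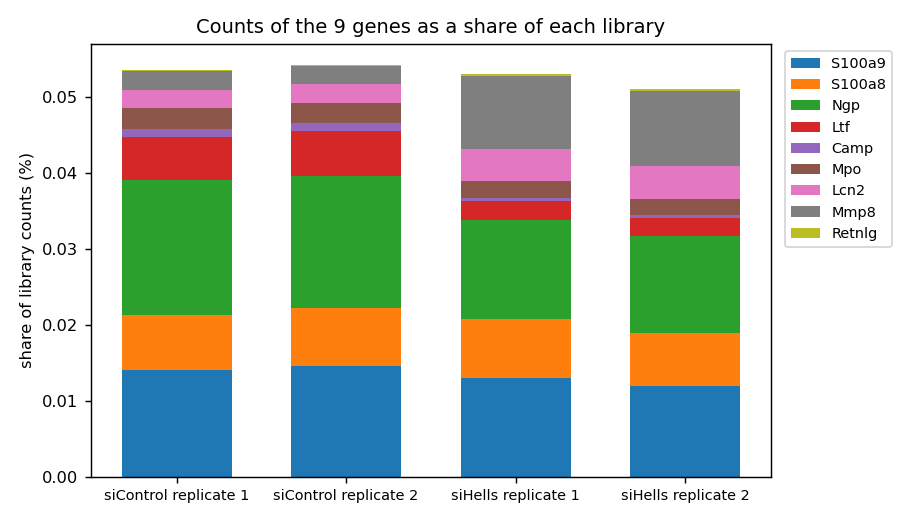
Share of each library's counts, in percent on an axis from 0, held by the 9 genes, stacked by gene. Each bar is 1 library. The bars are of similar height, between 0.0510% and 0.0543%, while the Mmp8 and Lcn2 segments are thicker and the Ltf, Camp and Ngp segments thinner in both siHells libraries.

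Ranked per length, the order of the genes also differed between the groups. In siControl, in CPM per kilobase of exon (SD, n = 2), S100a9 came first at 267.0 ± 8.39, then Ngp at 140.5 ± 1.64 and S100a8 at 104.9 ± 2.94. Far below them came Ltf at 16.2 ± 0.400, Camp at 14.2 ± 0.710, Mmp8 at 9.72 ± 0.305, Lcn2 at 9.14 ± 0.395, Mpo at 7.55 ± 0.0896 and Retnlg at 2.41 ± 0.115. In siHells, on the same scale, S100a9 was still first at 245.5 ± 16.1. S100a8 at 108.8 ± 7.75 and Ngp at 108.1 ± 1.69 did not differ beyond their spread. Mmp8 followed at 41.4 ± 0.517, then Lcn2 at 16.4 ± 0.199, Ltf at 7.31 ± 0.194 and Mpo at 6.63 ± 0.277. Camp at 5.02 ± 0.625 and Retnlg at 4.58 ± 0.807 came last and did not differ beyond their spread.

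Of the other 9 tested genes of azurophil granules and their processing, without Mpo, 2 were higher, 1 was lower and 6 were not called, with a median log2 fold change of 0.13. The shares over all tested genes were 29.0% higher and 29.5% lower. The serine protease genes Elane, Prtn3 and Ctsg had log2 fold changes of 0.21, 0.13 and 0.10 (adjusted p = 0.0984, 0.429 and 0.640). Mpo and Elane are both made in early neutrophil precursors. There were 300.2 and 327.0 Mpo reads per 100 Elane reads in siControl and 247.5 and 228.6 in siHells, a difference that was not tested. Srgn, the proteoglycan core that packs granule proteins, rose 1.39-fold and the protease inhibitor Serpinb1a rose 1.79-fold. Cst7, an inhibitor of the cathepsins that activate granule proteases, fell 4.59-fold.

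Genes of specific and gelatinase granules moved widely in both directions, 8 higher and 10 lower of 21 tested, with a median of -0.25. Over all tested genes the shares were 29.0% higher and 29.5% lower. Leaving out the members already described, 6 were higher and 7 lower of 16. Hp, haptoglobin, which binds free haemoglobin, had 331 and 288 reads in siControl against 3212 and 3279 in siHells. Hp rose 10.2-fold, from 5.89 ± 0.189 to 60.2 ± 1.32 CPM (± SD, n = 2 per group; log2 change 3.35, SE 0.072, adjusted p = 6.04e-15). Chil3, a chitinase-like protein of neutrophils and macrophages, rose 4.67-fold, from 126.8 ± 2.66 to 592.5 ± 3.78 CPM (adjusted p = 6.55e-17). Mmp9, a gelatinase granule protein that osteoclasts also make in quantity, fell 10.4-fold (adjusted p = 9.55e-20).

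Neutrophil surface receptors and late markers were more often higher, 6 of 13 tested against 2 lower, with a median of 0.49. Among all tested genes 29.0% were higher and 29.5% lower. The formyl peptide receptor genes Fpr1 and Fpr2 rose 2.92-fold and 4.55-fold, and the C-type lectin Clec4d rose 1.83-fold. Cxcr2, a defining neutrophil marker, had 125 and 100 reads in siControl against 96 and 102 in siHells (log2 fold change -0.22, adjusted p = 0.357). Csf3r, the receptor for granulocyte colony-stimulating factor, rose 1.10-fold (adjusted p = 0.0262), a call that was lost without siControl replicate 1 (0.0898), siControl replicate 2 (0.112) or siHells replicate 2 (0.142). It was also lost with upper-quartile scaling (0.0833), library totals (0.272) and the DESeq2 Wald test (0.0610). The 2 lower genes were Clec4e and G0s2, and G0s2 was lost without siControl replicate 1, siControl replicate 2 or siHells replicate 1 and with the DESeq2 Wald test (adjusted p = 0.182), leaving 1.

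**Figure D4:**
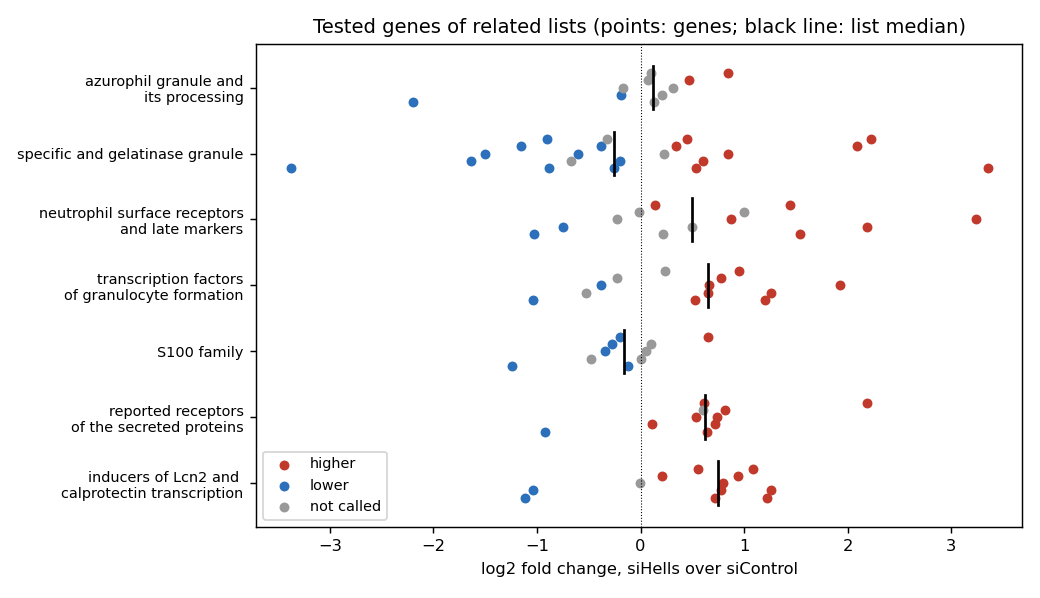
Log2 fold change of siHells over siControl for the tested genes of 7 related lists, 1 point per gene, red where higher, blue where lower and grey where not called, with a black line at each list's median. The azurophil genes run from Cst7 at -2.20 to Serpinb1a at 0.84, while the specific and gelatinase granule genes spread from Mmp9 at -3.37 to Hp at 3.35.

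Summed over the 9 neutrophil markers in the table, expression was 525.6 and 532.4 CPM in siControl and 534.6 and 518.0 CPM in siHells. Only Cxcr2 and Csf3r of these markers are not among the genes followed here, so this sum largely repeats the one above. In it too the rise of Mmp8 offset falls of Ngp, Ltf and Camp. The sum of the 7 granulocyte-monocyte progenitor markers was 49.0 and 47.6 CPM in siControl and 46.9 and 45.2 CPM in siHells. Mpo, already described, held 26.1 and 25.6 CPM of it in siControl and 23.4 and 22.0 in siHells. Of these 7, 0 were higher and 2 lower, Mpo and Kit. Kit fell 2.61-fold (adjusted p = 8.98e-05), which the sum does not show. Sums for the macrophage, monocyte and osteoclast lists moved more. The 8 macrophage markers, all in the table, summed to 15141 and 15276 CPM in siControl and 23557 and 22888 CPM in siHells, with 7 higher and 1 lower. Most of that rise came from Lyz2, at 11347 CPM in siControl and 17284 in siHells, which is also on the specific granule list. The 7 monocyte markers summed to 613.4 and 627.6 CPM in siControl and 1192 and 1183 CPM in siHells, with 5 higher and 1 lower. Chil3 alone went from 126.8 to 592.5 CPM and makes up most of that rise. The lower one, Ccr2, the receptor that brings monocytes out of the marrow, fell 2.60-fold, and Ly6c2 was not called (log2 fold change 0.12). The 10 osteoclast markers all fell, from 8662 and 8726 to 1436 and 1397 CPM. Beside these marker counts, 29.0% of all tested genes were higher and 29.5% lower. The table lists no count of 0, so markers with no reads cannot be seen in it. The part of these cell types in the changes of Mmp8, Lcn2, Ltf and Camp was not tested.

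The list of transcription factors of granulocyte formation also holds factors of monocyte formation, such as Irf8 and Klf4. Of its 13 tested genes 8 were higher and 2 lower, with a median log2 fold change of 0.65. The 2 lower were Spi1, the gene of PU.1, which fell 1.30-fold (adjusted p = 2.89e-07), and Egr2, which fell 2.05-fold (5.85e-06). Among all tested genes 29.0% were higher and 29.5% lower. Irf8, which favours monocytes over granulocytes, rose 1.94-fold, Klf4, a factor of monocyte formation, 3.79-fold and Runx1 1.57-fold. Nfil3 rose 2.30-fold. Cebpe, the C/EBP factor required for specific granule genes such as Ltf, Camp and Ngp, had 107 and 93 reads in siControl against 88 and 55 in siHells (log2 fold change -0.52, adjusted p = 0.0796). Without siHells replicate 1 it passed the test (log2 fold change -0.89, adjusted p = 0.0144), and without siHells replicate 2 the log2 fold change was -0.23 (adjusted p = 0.517). With library totals it passed at -0.60 (adjusted p = 0.0489). Gfi1, another factor needed for neutrophils, did not pass the test (log2 fold change 0.24, adjusted p = 0.509). Cebpa, Cebpb and Cebpd rose 1.44-fold, 2.40-fold and 1.72-fold.

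Genes that are known to induce Lcn2 and calprotectin were higher in 9 of 12 cases and lower in 2, with a median of 0.75. Among all tested genes 29.0% were higher and 29.5% lower. Nfkbiz, which encodes the IkB-zeta cofactor needed for Lcn2 induction, had 726 and 635 reads in siControl against 1490 and 1487 in siHells, a rise of 2.13-fold (adjusted p = 3.20e-09). The interleukin 6 receptor chains Il6ra and Il6st rose 2.33-fold and 1.92-fold, and Stat3 rose 1.65-fold. The cytokine genes Tnf and Il1b were the 2 that fell, from 184 and 161 to 111 and 61 counts and from 27 and 26 to 17 and 8 counts. The call of Il1b was lost without siControl replicate 1, siControl replicate 2 or siHells replicate 2, with the DESeq2 Wald test (adjusted p = 0.186) and with the replicate number as a block (0.0518), leaving 1. Without siHells replicate 1 its log2 fold change went from -1.11 to -1.74. Il6 was not among the symbols analysed here.

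Receptors reported for the secreted proteins were higher in 8 of 10 cases and lower in 1, with a median of 0.63. Among all tested genes 29.0% were higher and 29.5% lower. The 8 became 7 with upper-quartile scaling or library totals, where Bsg was lost (adjusted p = 0.0882 and 0.417). It was also 7 with the DESeq2 Wald test, where Slc22a17 was lost (0.0619), and 6 at a threshold of 0.01. Lrp1, a receptor that takes up lactoferrin, rose 1.65-fold and Cd14, a partner of the calprotectin receptor Tlr4, rose 1.76-fold. P2rx7, a channel through which cathelicidin acts, rose 1.56-fold and the scavenger receptor Cd36 fell 1.89-fold. Among 4 tested genes listed as neutrophil chemokines and growth factors, 3 were higher, with a median of 1.20. Csf1, a growth factor of macrophages rather than neutrophils, rose 2.61-fold. Cxcl2 rose 2.73-fold, and Ppbp, also listed as a megakaryocyte marker, rose 2.03-fold. Cxcl1 had 14 counts in each siControl library and 24 and 27 in siHells (adjusted p = 0.105). Csf3, Csf2 and Cxcl3 were not among the symbols analysed here.

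The upstream motifs did not sort the genes by direction. In the 200 bases before the RefSeq start, TTGCNNAA was found for Mmp8, Ltf and Ngp, that is 3 of the 9 genes, against 7.47% of 27025 promoters of the same length. Mmp8 rose, and Ltf and Ngp fell. Ngp held 2 matches, of which the one 11 bases before the RefSeq start lies within the GENCODE transcript and is not printed above. The match of Mmp8 begins 19 bases, and that of Ltf 75 bases, before the RefSeq start. AGGAAG, the core bound by PU.1, was found for 5 genes, Lcn2, Camp, Ltf, Mpo and S100a8, against 24.5% of promoters. ACANNNTGT, of the type bound by the glucocorticoid receptor, was found for Lcn2 alone of the 9, against 4.58%, and TATAAA for S100a8 alone, against 10.6%. The NF-kB motif was found in none of these 9 windows, against 5.84%. For Lcn2 and Mpo the GENCODE start lies 513 and 203 bases upstream of the RefSeq start. Their whole windows are thus within the GENCODE gene, and bases before its start were not searched. Of the 200 bases, 161 for Camp and 93 for S100a8 also lie within it. The matches of Lcn2, Camp and Mpo and the TATAAA of S100a8 are therefore not upstream of both starts. The motifs do not overlap each other in the printed sequences, and a match is a description of letters, not evidence of binding.

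Genes with the most similar pattern across the 4 libraries were looked up among genes of like fold change. For Mmp8 they were Gm5431, Jade2, Notch1, Paox and Fcgrt, and for Ltf Chst11, Anxa2, Itgb7, Retsat and Vim. All had a Pearson r of at least 0.9998 over the 4 libraries, a likeness that the contrast between 2 pairs of close replicates largely sets.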

How the data were processed

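The deposited values are raw read counts, whole numbers per gene symbol, with a column for each library. Build mm10, edgeR, StringTie 2.1.3b, HISAT2 2.1.0, Trimmomatic 0.38 and FastQC appear in the submitters' processing notes without roles. The annotation release and strand setting of the authors' counting are not given in these sources, and the labels name 2 library kits. The lowest count is 1, so genes with 0 reads in any library were not analysed here.

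Genes were kept by filterByExpr (minimum count 10, minimum total 15), scaled by TMM and tested with the robust edgeR 4.0.16 quasi-likelihood fit (R 4.3.3) on group alone, with 2 residual degrees of freedom and an adjusted p threshold of 0.05 over all 15651 genes. The procedure was also run on simulated counts. These held far fewer changed genes than the data and a single spread for all genes, so they do not test it under the conditions here. CPM are TMM-normalised. CPM per kilobase uses merged GENCODE M21 exons. Promoter sequences are from RefSeq (GRCm38.p6), where 9 of 9 genes matched. Similarity of pattern used log2 CPM with a pseudocount of 0.5, among genes whose mean log2 CPM reached 1 and whose log2 fold change lay within 0.25 of the member's.

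Named genes are the 9 members, up to 4 called genes of smallest p per list, all genes of short lists, neighbours within 200 kb and defining markers. Others (Elane, Prtn3, Ctsg, Cebpa, Cebpb, Cebpd, Cebpe, Gfi1, Tnf, Il1b, and genes that identify a small count) were chosen after their values were seen. In the lists, 1 gene is not reported here and was left out of its lists. The members and lists were chosen with earlier results of these data known. Alternatives were other scalings and filters, DESeq2 1.42.0, limma 3.58.1 voom, a replicate block, each library left out and a threshold of 0.01.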

Additional observations from a re-analysis of the deposited data

How the results depend on the processing

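The total count of genes past the threshold, the count among the 9 genes (8) and that over all related lists stayed within 1.5 times of their values under every alternative run. The fold changes of Mmp8, Lcn2, Retnlg, Ngp, Ltf and Camp kept their direction and their call in all 12 alternatives each. Their log2 fold changes ranged from 2.02 to 2.11 for Mmp8, 0.77 to 0.90 for Lcn2, 0.74 to 1.10 for Retnlg, -0.45 to -0.36 for Ngp, -1.22 to -1.12 for Ltf and -1.63 to -1.37 for Camp. S100a8, which was not called, had a log2 fold change of -0.02 with library totals (-0.0202), and between -0.02 (-0.0189) and 0.13 with 1 library left out. The number of the 9 genes that fell was 3 in place of 5 with the DESeq2 Wald test, at a threshold of 0.01, and without siControl replicate 2 or siHells replicate 2, as Mpo and S100a9 were then not called. No common shift of same-numbered libraries was seen, as their deviations correlated at 0.0292 over 12872 genes. This does not show whether they share a culture, mouse or preparation. With the replicate block 8 of the 9 genes passed the threshold, with S100a9 at an adjusted p = 0.0481. Among the related and marker lists the block ended the call of Il1b (0.0518) and added Slpi (0.0425), and no other call changed with it. Both library kits named in the labels leave the strand setting open. With 2 libraries a group, small changes such as those of Mpo and S100a9 sit at the limit of what this depth and design can show.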

Other observations

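Markers of other granulocytes were also read. Beside the counts given here, 29.0% of all tested genes were higher and 29.5% lower. Of 5 eosinophil markers 3 were in the table, and 2 of them fell. Prg2, the eosinophil major basic protein, had 134 and 112 reads in siControl against 24 and 15 in siHells, a fall of 6.44-fold (log2 fold change -2.69, SE 0.29, adjusted p = 1.13e-06). Ccr3, the eotaxin receptor, had 1208 and 1091 reads in siControl against 135 and 144 in siHells, a fall of 8.46-fold (log2 fold change -3.08, SE 0.11, adjusted p = 1.49e-12). Siglecf had 27 and 19 reads in siControl against 16 and 27 in siHells (adjusted p = 0.799). Epx and Il5ra were not among the symbols analysed here. Of 6 mast cell and basophil markers 4 were tested and 2 rose, Gata2 from 39 and 26 to 99 and 89 counts and Cpa3 from 3 and 7 to 18 and 13. The call of Cpa3 was lost without siControl replicate 1 (adjusted p = 0.296) or siHells replicate 1 (0.162). The basophil proteases Mcpt8 and Prss34 had log2 fold changes of -0.04 and 0.15 and did not pass the test.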
